A study of Mus musculus with 4 samples.

Results

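The Olig and Nkx lineage transcription factors are 3 basic helix-loop-helix (bHLH) proteins, Olig1, Olig2 and Olig3, and 3 homeodomain proteins, Nkx2-2, Nkx6-1 and Nkx6-2. They were picked out by gene symbol, with earlier results of these data known, and each symbol matched 1 of the 53465 genes listed in the count tables. Transcripts came from primary (1°) mouse oligodendroglial cells (OGCs) that had been differentiated for 3 days in culture, and were measured in 2 ctrl and 2 Zfp276cko libraries. All 4 libraries carried the Zfp276 flox/flox allele, in which loxP sites flank exons 2 to 5 of this zinc finger gene. Zfp276cko cells carried in addition the Sox10::Cre transgene, which drives the recombinase in oligodendroglial cells, whereas ctrl cells did not. Each library pooled forebrain cells of 3 mice aged between 2 and 4 postnatal days, of mixed C3H x C57Bl/6J background. The breeding for primary mouse cultures also contained a Cre-dependent tdTomato reporter allele in Rosa26. The comparison asks how these factors were expressed after loss of Zfp276.

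As background, Olig2 starts the oligodendroglial lineage in progenitors that receive Sonic hedgehog, and stays in the lineage from the precursor (OPC) to the myelinating oligodendrocyte (OL). Olig1, its close relative and neighbour in the genome, acts mainly in differentiation. Nkx2-2 and Nkx6 proteins pattern the ventral neural tube as repressors that recruit Groucho co-repressors of the Tle family, and Nkx2-2 is used again when OPCs begin to differentiate. Nkx6-2 is found in OLs, while Nkx6-1 and Olig3 belong to progenitors of the spinal cord and hindbrain.

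Libraries held between 21068322 and 26599809 counted reads. Zfp276 itself stood at 1648 and 2230 normalized counts in the ctrl pair and at 489 and 503 in the Zfp276cko pair, so that 25.6% of the mean ctrl level remained. Normalized counts are counts scaled to a common effective library size of 23636428. Markers of other cell types differed between the libraries. The summed level of 12 fibroblast and vessel markers was 361 CPM (counts scaled to library size) in ctrl replicate 1 and between 20.7 and 24.6 in the others. That of 12 neuron markers was 713 in ctrl replicate 1, 1325 in ctrl replicate 2 and 981 and 1076 in Zfp276cko cells, with Rbfox3 at 14.2 normalized counts in ctrl replicate 1 and at least 106 in the others. Summed microglia markers lay between 2211 and 2983 CPM and summed astrocyte markers between 1878 and 1980, but single markers within these sums differed between the ctrl replicates in both directions. Csf1r, a microglial receptor, had 11409 normalized counts in ctrl replicate 1 and 1850 in ctrl replicate 2, whereas Aif1 had 1248 and 3204. Gfap, an astrocyte filament protein, had 17641 and 8463, whereas Slc1a3, a glutamate transporter, had 2674 and 6747. Some single markers also differed between genotypes. Of 15 tested microglia markers, 1 lay below and 4 above both ctrl libraries, and of 11 astrocyte markers 2 and 3. Over all tested genes these shares were 23.7% and 26.8%. By the thresholds given below, DESeq2 called 1 microglia marker lower and 2 higher (2.07% and 2.66% of all tested genes), and 0 astrocyte markers. Oligodendroglial markers were present throughout but differed between genotypes. The summed level of 15 OL markers was 16040 and 22540 CPM in the ctrl pair and 11840 and 12220 in the Zfp276cko pair. That of 12 OPC markers was 9772 and 7345 against 6159 and 6141, but this sum rests in large part on Gpr17. This gene had the highest counts of the 12, at 113405 and 69766 normalized counts in ctrl against 43296 and 41092 in Zfp276cko cells. Among the others, Pdgfra overlapped between genotypes and Ednrb lay above both ctrl libraries. The part of these other cells in the results below was not tested. In bulk libraries, fewer cells of a type and less RNA per cell cannot be told apart.

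The 6 factors covered a wide range of levels. Olig1 and Olig2 were abundant, Nkx2-2 less so, Nkx6-2 was low, and Nkx6-1 and Olig3 were at or near 0. Per kilobase of annotated exon, the mean ctrl level was 14015 normalized counts for Olig1, 5126 for Olig2, 2089 for Nkx2-2 and 245 for Nkx6-2. In Zfp276cko cells it was 7700, 3376, 2163 and 316 in the same order. The order was the same in all 4 libraries, and no 2 neighbours in it overlapped between the libraries of a genotype. It also held with coding length in place of exon length. Olig1 ranked 30th of 15495 tested genes with a gene model by level per kilobase in ctrl and 59th in Zfp276cko cells, Olig2 ranked 113th and 185th, and Nkx2-2 421st and 352nd. Nkx6-2 was above 67.6% of these genes in ctrl and above 74.2% in Zfp276cko cells.

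Of the 6 members, 4 passed the filter on low counts. Olig1 and Olig2 were lower in each Zfp276cko library than in either ctrl library, Nkx6-2 was higher, and Nkx2-2 overlapped. Among 15766 tested genes, 23.7% were lower and 26.8% higher in this way, so that a lack of overlap is common in this series. The quasi-likelihood test of edgeR with Benjamini-Hochberg adjustment called 0 of the 4 members. A call required an adjusted p no larger than 0.05, a log2 fold change of 0.6 or more in size, and 20 or more normalized counts on average. It called 0% of all tested genes lower and 0% higher, although 1151 and 1313 had an unadjusted p under 0.05. With the p left unadjusted and all thresholds kept, Olig1 and Olig2 passed as lower, against 3.02% of all tested genes, and 0 members as higher, against 5.11%. DESeq2, the tool of the study, likewise called Olig1 and Olig2 lower, against 2.07% of tested genes, and 0 members higher, against 2.66%.

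**Figure D1:**
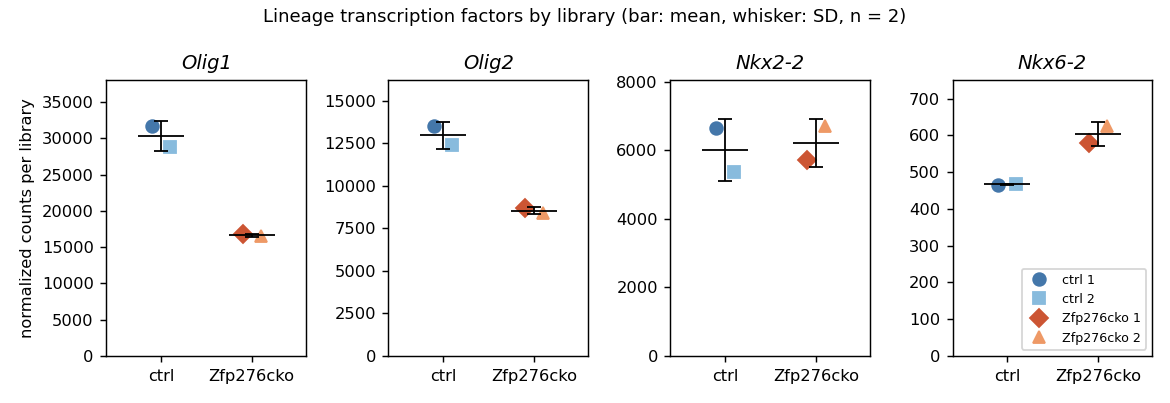
Normalized counts (y axis, starting at 0) of Olig1, Olig2, Nkx2-2 and Nkx6-2 in the 2 ctrl and 2 Zfp276cko libraries, with a point for each library, a bar for the mean and whiskers for the SD. Zfp276cko points lie apart below ctrl for Olig1 (16810 and 16487 against 31743 and 28857) and Olig2, apart above for Nkx6-2, and interleave with ctrl for Nkx2-2.

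Olig1 encodes the more abundant of both bHLH factors. It is a gene of 1 exon that GENCODE places at chr16:91269772-91271933 (mm10, plus strand). The ctrl replicates held 31743 and 28857 normalized counts of it, and the Zfp276cko replicates held 16810 and 16487. Both Zfp276cko libraries were thus lower than both ctrl libraries, with a gap far wider than that within either genotype. Means were 30300 ± 2041 and 16648 ± 228 (SD, n = 2 each), so that Zfp276cko cells had 54.9% of the ctrl level. The log2 fold change was −0.86 (standard error 0.12, 95% interval −1.20 to −0.53), with an adjusted p of 0.123 in edgeR's quasi-likelihood test. The DESeq2 value was −0.88 (adjusted p = 1.3e-08), and this tool called the gene. Counting error is small here, at most 0.734% of the value in any library. Markers of OLs as a group were also lower, and their part in the Olig1 and Olig2 values was not tested. Of the 15 OL markers, 13 lay below and 1 above both ctrl libraries, and DESeq2 called 11 lower. Their median log2 fold change was −0.86, or −0.58 without ctrl replicate 2. The 12 OPC markers had a median of −0.44, with 8 below and 1 above. Of all tested genes, 23.7% lay below, 26.8% lay above and 2.07% were called lower by DESeq2.

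Olig2, without which no OPCs form in the spinal cord, lies 41094 bp upstream of Olig1 on the same strand, from 91225457 to 91228677, and has 2 exons. Its normalized counts were 13537 and 12402 in ctrl against 8692 and 8392 in Zfp276cko cells. Again the Zfp276cko libraries lay together, below both ctrl libraries. The means of 12970 ± 803 and 8542 ± 212 (SD, n = 2 each) correspond to 65.9% of ctrl. The log2 fold change of −0.60 (standard error 0.11, 95% interval −0.90 to −0.30) had an adjusted p of 0.162 in edgeR's quasi-likelihood test and one of 0.000312 in DESeq2. It sits at the threshold of 0.6, and fell short of it without ctrl replicate 1 (−0.54), without Zfp276cko replicate 2 (−0.58), without a filter on low counts (−0.58) and with at least 10 counts required in every library (−0.59).

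The Olig proteins share a bHLH domain, which binds DNA as a dimer. Shown is the stretch of 120 coding bases of Olig2 that Olig1 and Olig3 together match best, in reading frame. Capitals mark positions that are not the same in all 3 genes.
Olig1: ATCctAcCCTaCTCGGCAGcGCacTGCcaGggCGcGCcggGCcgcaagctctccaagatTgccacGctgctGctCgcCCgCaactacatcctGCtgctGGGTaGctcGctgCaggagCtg
Olig2: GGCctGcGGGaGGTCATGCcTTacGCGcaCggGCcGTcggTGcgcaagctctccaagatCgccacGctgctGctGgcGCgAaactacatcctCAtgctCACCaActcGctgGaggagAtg
Olig3: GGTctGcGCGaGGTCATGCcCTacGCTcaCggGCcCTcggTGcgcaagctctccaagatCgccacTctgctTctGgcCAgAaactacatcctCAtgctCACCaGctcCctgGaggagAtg
These are the plus strand of mm10 at chr16:91270237-91270356, chr16:91226787-91226906 and chr10:19356944-19357063, and all lie in coding exons. Of the 120 bases, 76 were the same in all 3 genes. Olig2 and Olig3 matched in 90.8%, Olig1 and Olig2 in 68.3%, and Olig1 and Olig3 in 65.8%. The longest identical run in the whole coding sequences was 29 bases between Olig2 and Olig3 and 17 between Olig1 and either of them. Reads were 101 bases long, and 0 windows of this length were shared between any of the 6 members or with another gene on the same strand. Reads of these genes can therefore be told apart by sequence.

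Olig1 and Olig2 were not lower by the same factor. The ratio of Olig1 to Olig2 counts, which does not depend on scaling between libraries, was 2.35 and 2.33 in ctrl replicates 1 and 2. It was 1.93 and 1.96 in the Zfp276cko replicates. Replicates of a genotype agreed closely (2.34 ± 0.0127 against 1.95 ± 0.0217, SD, n = 2 each), and the difference was −0.26 on the log2 scale. The exact two-sided permutation test gave p = 0.333, which is the smallest value that 2 against 2 libraries allow. Leaving out any single library left the difference between −0.27 and −0.25.

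Nkx2-2 lies on chromosome 2 from 147177546 to 147194243 on the minus strand. Its normalized counts were 6643 and 5369 in ctrl, against 5723 and 6716 in Zfp276cko cells. The genotypes interleaved, with means of 6006 ± 901 and 6220 ± 702 (SD, n = 2 each). The log2 fold change of 0.05 had a standard error of 0.16 and an adjusted p of 0.912 in edgeR's quasi-likelihood test. Its 95% interval from −0.39 to 0.49 overlapped that of Olig2 (−0.90 to −0.30) but not that of Olig1 (−1.20 to −0.53). The sign depended on single libraries. It was 0.21 without ctrl replicate 1, −0.11 without ctrl replicate 2, 0.17 without Zfp276cko replicate 1 and −0.07 without Zfp276cko replicate 2. Nkx2-2 was the member with the widest gap between the Zfp276cko replicates. Their ratio of 1.17 was larger than that of 86.2% of genes that averaged 20 or more normalized counts, against 17.3% for Olig1 and 30.9% for Olig2. In ctrl its replicate ratio of 1.24 exceeded that of 51.6% of genes.

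Nkx6-2, a homeodomain factor of OLs, lies on chromosome 7 from 139579376 to 139582797 on the minus strand. Its libraries showed 465 and 468 normalized counts in ctrl libraries against 580 and 626 in Zfp276cko cells. The ctrl replicates were nearly equal and both Zfp276cko replicates were higher, at 129% of the ctrl mean. The means were 467 ± 1.91 and 603 ± 32.7 (SD, n = 2 each). The log2 fold change of 0.37 (standard error 0.12, 95% interval 0.03 to 0.71) did not pass, with an adjusted p of 0.297 in edgeR's quasi-likelihood test and 0.445 in DESeq2. It was below the threshold of 0.6 in size. The lowest count behind these values was 392, for which counting error alone is 5.05%.

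Nkx6-1 and Olig3 were not detectable at this depth. Nkx6-1 (chromosome 5, 101658139 to 101664996) had 1 read in ctrl replicate 1 and 0 in the other 3 libraries. Olig3 (chromosome 10, 19356533 to 19358604) had 0 reads in all 4. A count of 0 allows up to 3 reads, or between 0.113 and 0.142 CPM depending on the library, and covers counting error only. No fold change was computed for either gene. The longest identical run between the Nkx6-1 and Nkx6-2 coding sequences was 17 bases.

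**Figure D2:**
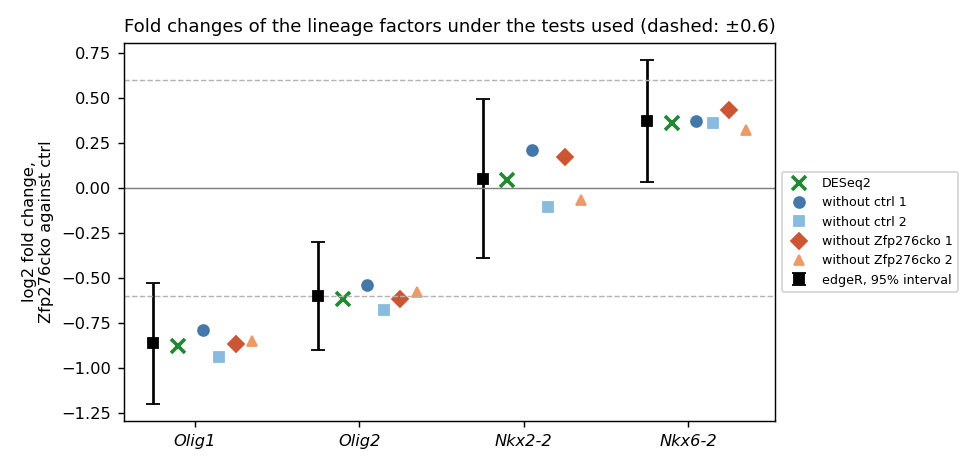
Log2 fold change of Zfp276cko against ctrl (y axis) for the 4 tested members, from edgeR with its 95% interval (squares), from DESeq2 (crosses) and with each library left out in turn (coloured symbols), with dashed lines at ±0.6. All values of Olig1 lie below −0.6, those of Olig2 lie around it, those of Nkx2-2 lie on both sides of 0, and those of Nkx6-2 lie between 0 and 0.6.

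Ratios between other pairs of factors also differed between genotypes. These pairs were picked with their values known. The ratio of Nkx2-2 to Olig2 counts was 0.491 and 0.433 in ctrl against 0.658 and 0.800 in Zfp276cko libraries. That of Nkx6-2 to Olig2 was 0.0344 and 0.0377 in ctrl against 0.0667 and 0.0746 in Zfp276cko libraries, a log2 difference of 0.97. The genotypes did not overlap in either ratio, and the exact two-sided permutation test gave its smallest possible p of 0.333 for both. Sox10 is a factor of the whole oligodendroglial lineage and was used as a reference within each library. The ratio of Olig1 to Sox10 was 1.75 and 1.39 in ctrl against 0.944 and 0.886 in Zfp276cko libraries, and that of Olig2 to Sox10 was 0.746 and 0.598 against 0.488 and 0.451. Relative to Sox10, both Olig genes therefore also lay lower in both Zfp276cko libraries, with log2 differences of −0.77 and −0.51. Nkx6-2 to Sox10 lay higher (0.0257 and 0.0226 against 0.0326 and 0.0336), and Nkx2-2 to Sox10 overlapped.

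**Figure D3:**
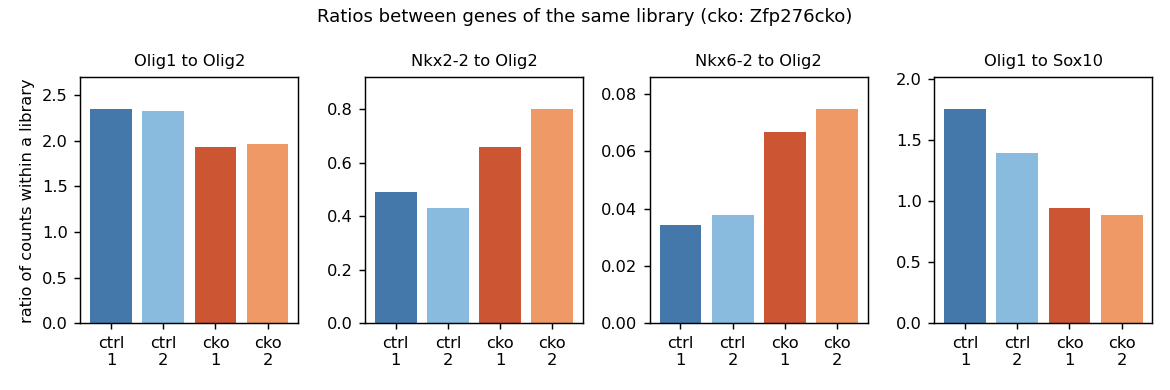
Ratios of counts between pairs of genes within each library (y axes, starting at 0), 1 bar per library with ctrl in blue and Zfp276cko in orange. Olig1 to Olig2 and Olig1 to Sox10 are lower, and Nkx2-2 to Olig2 and Nkx6-2 to Olig2 higher, in each Zfp276cko library than in either ctrl library.

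Olig1 and Olig2 share a stretch of chromosome 16 with 4 cytokine receptor genes. Ifnar2, which encodes a subunit of the type I interferon receptor, is the nearest protein-coding gene downstream, 100849 bp beyond the end of Olig1. It had 1063 and 641 normalized counts in ctrl libraries against 728 and 726 in Zfp276cko cells, and the genotypes overlapped. Ifnar1, the other subunit, had a log2 fold change of −0.17, and Ifngr2, of the type II receptor, had 0.19, with adjusted p-values of 0.579 and 0.670 in edgeR's quasi-likelihood test. Il10rb had 439 and 397 normalized counts in ctrl libraries against 623 and 644 in Zfp276cko cells, above both ctrl libraries (log2 fold change 0.60, standard error 0.13, adjusted p = 0.183 in the same test). None of the 4 receptor genes lay below both ctrl libraries as Olig1 and Olig2 did. On the other side, 4932438H23Rik had between 7 and 23 reads per library.

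Antisense transcripts can share reads with members if strand is not used in counting, and the strand setting is not given in the sources used here. Gm15966 overlaps the end of Olig1 by 157 exonic bp on the opposite strand and had 0 reads in all libraries. Nkx2-2os overlaps 278 exonic bp of Nkx2-2, and 6.32% of the read-length windows of Nkx2-2 are also in it. It had 73.6 and 133 normalized counts in ctrl libraries against 100 and 91.9 in Zfp276cko cells, which is far below Nkx2-2 and overlapped between genotypes. Another antisense gene, within an intron of Nkx2-2, 6430503K07Rik, had between 72.4 and 91.2. Inpp5a, which ends inside Nkx6-2 on the opposite strand, overlaps it by 246 exonic bp and 8.19% of its read-length windows. Inpp5a had 1200 and 817 normalized counts in ctrl libraries against 782 and 737 in Zfp276cko cells, which is more than Nkx6-2 in every library. Its part in the Nkx6-2 counts was not tested. Cfap46, on the other side of Nkx6-2, had a log2 fold change of 0.18 (adjusted p = 0.797 in edgeR's test). The neighbours of Nkx2-2, Nkx2-4 and Pax1, had at most 5 and 6 reads.

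RefSeq holds promoter windows of GRCm38.p6 for 5 of the 6 members, and those of the 3 that passed the filter and are in this table are shown, since they are the members whose levels were compared. Printed are up to 160 bases that end just before an annotated exon, in the direction of transcription, with capitals at matches to CCAAT and CANNTG.
Olig2: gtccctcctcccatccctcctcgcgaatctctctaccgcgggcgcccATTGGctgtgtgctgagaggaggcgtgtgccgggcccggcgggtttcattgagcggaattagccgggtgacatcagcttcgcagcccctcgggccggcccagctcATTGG
Nkx2-2: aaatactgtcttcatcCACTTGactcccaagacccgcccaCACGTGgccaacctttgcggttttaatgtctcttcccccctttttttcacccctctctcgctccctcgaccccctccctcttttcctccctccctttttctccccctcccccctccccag
Nkx6-2: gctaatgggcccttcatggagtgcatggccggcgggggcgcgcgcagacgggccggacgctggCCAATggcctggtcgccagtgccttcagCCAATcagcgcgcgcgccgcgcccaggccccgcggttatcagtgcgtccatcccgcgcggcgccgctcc
These lie at chr16:91225300-91225456 on the plus strand, and at chr2:147186456-147186615 and chr7:139582798-139582957 on the minus strand. The stretch of Nkx2-2 lies within the gene, in an intron of transcripts that start farther upstream. The GC content was 66.9%, 56.9% and 74.4%. Motifs were searched on both strands of the whole RefSeq windows, which extend beyond the printed bases. ACAAT and CCAAT differ in their first letter, so that a site can match only 1 of them. The E-box CANNTG, the motif bound by bHLH proteins, occurred 0 times in the window of Olig2, 3 times in that of Nkx2-2 and once in that of Nkx6-2, and in 72.3% of 32851 promoter windows. CCAAT occurred 2 times in Olig2 and Nkx6-2 and 0 times in Nkx2-2 (37.4% of all windows). The SOX core ACAAT was in the windows of Olig2 and Nkx2-2 (31% of all), the NK core AAGTG in that of Nkx2-2 (46.4%), and the homeodomain core TAAT in all 3 (58%). TATAAA was in that of Olig2 (13.6%). These matches describe letters in a window and not bound sites.

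The genes that these factors work with were grouped in 6 lists. The Hedgehog pathway, which induces Olig2, Nkx2-2 and Nkx6 genes in ventral progenitors, had 11 of 16 genes tested. The quasi-likelihood test of edgeR called 0 of them, 0 had an unadjusted p under 0.05, and the median log2 fold change was −0.07, against −0.0013 over all tested genes. This median was −0.24 without ctrl replicate 1 and turned to 0.12 when ctrl replicate 2 was left out. Shh had at most 3.56 normalized counts in any library and Gli1, a target that reports pathway activity, at most 1.81. The receptor Ptch1 had 2658 and 2840 in ctrl against 2591 and 2648 in Zfp276cko cells. The smallest p-values belonged to Disp1, which releases the ligand from cells (0.60, adjusted p = 0.400), to Kif7 (0.28, 0.405) and to Sufu (−0.15, 0.727), cytoplasmic regulators of the Gli proteins.

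Homeodomain and other factors that oppose the Olig and Nkx genes in patterning had 10 of 16 genes tested and a median of −0.04. At an unadjusted p under 0.05, 2 were lower and 1 higher, against 1151 and 1313 of all 15766 tested genes. Of the list, 0 were called. Dbx2, a patterning factor of intermediate progenitors, had 514 and 390 normalized counts in ctrl libraries against 247 and 272 in Zfp276cko cells (log2 fold change −0.80, adjusted p = 0.208 in edgeR's test). Irx3, which shares a mutually repressive border with Olig2 in the neural tube, had 64.1 and 46.1 in ctrl against 99.5 and 94.5 in Zfp276cko cells (0.81, 0.305). This list depended on the ctrl library. Leaving out ctrl replicate 1 gave a median of −0.54, and leaving out ctrl replicate 2 gave 0.78.

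Co-repressors and chromatin partners had 15 genes tested. Of these, 8 lay below and 0 above both ctrl libraries, against 23.7% and 26.8% of all tested genes. The list median was −0.09, and lay between −0.16 and −0.05 with single libraries left out. Tle2, a Groucho co-repressor, stood out with 970 and 1261 normalized counts in ctrl libraries against 275 and 240 in Zfp276cko cells. Its log2 fold change was −2.12 (standard error 0.19) with an adjusted p of 0.0962 in edgeR's quasi-likelihood test and of 1.08e-14 in DESeq2, which called it. The related genes Tle1, Tle3 and Tle4 had log2 fold changes of 0.14, 0.08 and −0.29. Dnmt3a, a DNA methyltransferase, had −0.39, with an adjusted p of 0.403 in edgeR's test. Chd7 and Smarca4, remodellers that act with Olig2 and Sox10, had −0.20 and −0.06.

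Of the partners that bHLH proteins dimerize with, Tcf3, Tcf4 and Tcf12 encode E-proteins, and Id proteins sequester these. All 7 genes were tested, 3 had an unadjusted p under 0.05 and were higher, and 0 were called by edgeR, whereas DESeq2 called the same 3. They were Id1, Id2 and Id3. Of all 15766 tested genes, 1313 were higher at this p, DESeq2 called 2.66% higher and 26.8% lay above both ctrl libraries. Id1 had 782 and 612 normalized counts in ctrl libraries against 1379 and 1313 in Zfp276cko cells, and Id3 had 1505 and 1923 against 3357 and 3325. Id2 had 3227 and 3125 against 4570 and 5211. In all 3 genes both Zfp276cko libraries were above both ctrl libraries, with log2 fold changes of 0.95, 0.96 and 0.62 for Id1, Id3 and Id2 and adjusted p-values of 0.139, 0.132 and 0.153 in edgeR's test. Id4 overlapped between genotypes. The median of the list was 0.20, and lay between 0.10 without ctrl replicate 1 and 0.46 without Zfp276cko replicate 1. The E-proteins had log2 fold changes of 0.20 for Tcf4, −0.27 for Tcf12 and −0.01 for Tcf3.

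Among 15 transcription factors that act downstream of or together with the Olig and Nkx proteins, 10 lay below and 1 above both ctrl libraries. Of all tested genes, 23.7% lay below and 26.8% above. The list median was −0.12, and lay between −0.23 and −0.08 with single libraries left out. Sox8 and Myrf, which drive differentiation together with Sox10, had log2 fold changes of −0.65 and −0.87 and adjusted p-values of 0.139 and 0.176 in edgeR's test. Sox8 had 9936 and 10792 normalized counts in ctrl libraries against 6693 and 6482 in Zfp276cko cells. Sox5, an OPC factor that counteracts differentiation, was the one above both, with 1382 and 1499 against 2389 and 2425 (0.74, adjusted p = 0.117). DESeq2 called Sox8 and Myrf lower and Sox5 higher, against 2.07% and 2.66% of all tested genes. Zfp488, a partner of Olig2, had −0.45, and Zeb2, a repressor that promotes differentiation, had −0.12.

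Of 12 known targets of the Olig and Nkx factors, 9 lay below and 0 above both ctrl libraries, against 23.7% and 26.8% of all tested genes. The median log2 fold change of the 12 was −0.78, and −0.44 without ctrl replicate 2. With an unadjusted p under 0.05, 9 were lower, against 1151 of all 15766 tested genes, and DESeq2 called 8 lower, against 2.07%. Among the 3 genes of smallest p were Mog (1996 and 1794 normalized counts in ctrl libraries against 990 and 1010), a late myelin protein, and Bcas1, a marker of early myelinating OLs, with log2 fold changes of −0.92 and −0.77. Pdgfra, which Nkx2-2 represses as OPCs leave the precursor stage, overlapped between genotypes with 10049 and 15501 normalized counts in ctrl libraries against 11842 and 11561 in Zfp276cko cells. Gpr17, a receptor of late OPCs that Olig1 regulates, had 113405 and 69766 in ctrl against 43296 and 41092 in Zfp276cko cells.

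**Figure D4:**
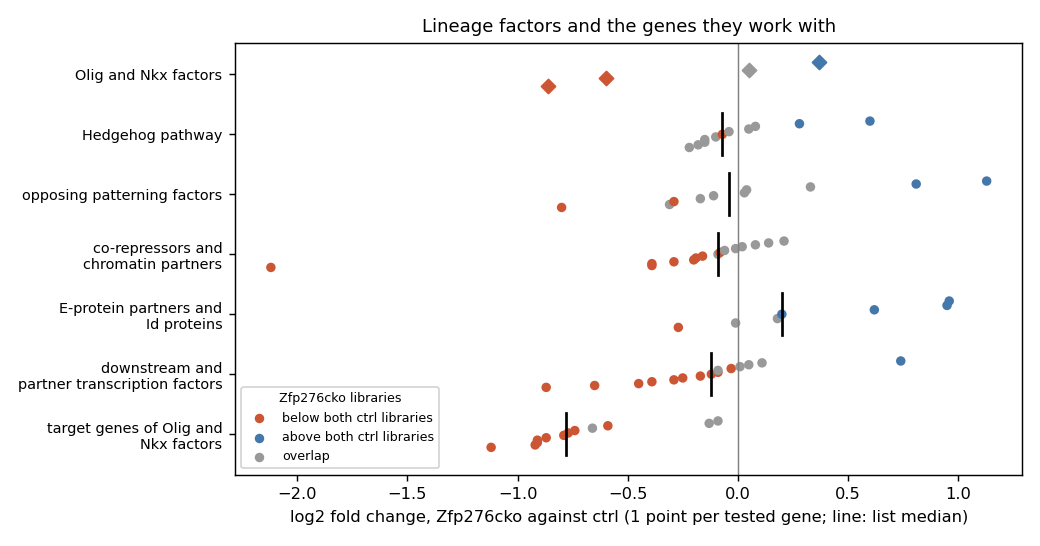
Log2 fold change of Zfp276cko against ctrl (x axis) for each tested member (diamonds, top) and each tested gene of the 6 partner lists (points), coloured by whether both Zfp276cko libraries lie below both ctrl libraries, above both, or overlap with them, with a line at each list's median. Most target genes lie left of −0.5 with Olig1 and Olig2, Id1, Id2 and Id3 lie right of 0.5, and Tle2 stands at −2.12.

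Relatives outside the 6 members were scarcely expressed. Of 11 further Nkx genes, Nkx3-2 alone passed the filter, with 32.1 and 76.5 normalized counts in ctrl libraries against 42.5 and 57.6 in Zfp276cko cells. Nkx2-1, a factor of the ventral forebrain, had at most 8.14. Of 14 further bHLH genes, Bhlhe22 (between 8.31 and 19.1) and Ascl2 passed the filter. Ascl2 had 27.3 and 24.8 in ctrl against 58.8 and 69.6 in Zfp276cko cells, with a log2 fold change of 1.30 and an adjusted p of 0.186 in edgeR's test. Bhlha15 had 16 reads in ctrl replicate 2 and at most 2 elsewhere, and Neurog2 had 14 reads in Zfp276cko replicate 2 and at most 6 elsewhere.

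Genes with the most similar pattern over the 4 libraries were found by the root mean square difference of centred log2 normalized counts among 11884 other genes. For Olig1 they were Slc24a2 (difference 0.0184), Stk39 (0.0292) and Traf4 (0.0303), and for Olig2 Man2a2 (0.0204), 1810041L15Rik (0.0207) and Rffl (0.0244). For Nkx2-2 they were Trmt10b (0.00948), Has2 (0.0122) and 1110059G10Rik (0.0195), and for Nkx6-2 Bcl6 (0.0127), Arhgap30 (0.0213) and Gpr18 (0.0234). Within a difference of 0.1 lay 0.555% of genes for Olig1, 1.67% for Olig2, 4.89% for Nkx6-2 and 6.25% for Nkx2-2. Values were centred but not scaled, and these shares rose as the size of the log2 fold change fell. They therefore carry little beyond the fold changes. With 4 libraries such likeness is a description only.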

How the data were processed

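Libraries were stranded and sequenced from a single end. Reads were aligned by the authors to mm10 using STAR 2.5.4a, and raw counts per gene symbol were deposited. Their methods name HTSeq count on Ensembl genes, whereas the submitters' processing notes name featureCounts 1.5.1. Which of these made the counts was not determined, and the strand setting is not given in the sources used here. The files hold 53465 genes, of which 220 entries share a symbol and were kept apart.

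Genes passing filterByExpr (15766) were normalized with TMM and compared with edgeR 4.0.16 (quasi-likelihood test, default legacy setting, R 4.3.3) without covariates. Standard errors are the fold change divided by the root of the F statistic, and 95% intervals use the moderated degrees of freedom. DESeq2 1.42.0 was run on the same genes. The scripts were tested on simulated counts, with a spread far below that of the ctrl pair here. That test therefore does not show how many true differences would be called in these data. Positions and lengths came from GENCODE M21 on GRCm38, which is mm10.

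The biological coefficient of variation was 0.357 in ctrl and 0.048 in Zfp276cko cells. Preparations were independent, with n = 2 per genotype. Same-numbered replicates did not deviate together (r = −0.00426 across genes).

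The members and gene lists were chosen with earlier results of these data known. Named are the members, the 3 genes of smallest p in each partner list, related genes with at least 10 reads, neighbours and genes of similar pattern. Others (Nkx2-1, Sox10, Gad1, Ednrb, Csf1r, Aif1, Gfap, Slc1a3, Shh, Gli1, Ptch1, Rbfox3, Tle1, Tle3, Tle4, Chd7, Smarca4, Tcf3, Tcf4, Tcf12, Id4, Zfp488, Zeb2, Pdgfra, Gpr17, Dlx1, Dlx2, Cspg5 and Neu4) were named after their values were seen. Protein sequences and promoters outside the RefSeq table were not used here. A few genes that this rule would name, and the coding sequence of 1 member, are not reported here. Alternatives were DESeq2's size factors, other filters, DESeq2, the other legacy setting, a replicate block and leaving out each library.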

Additional observations from a re-analysis of the deposited data

How the results depend on the processing

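The direction of Olig1, Olig2, Nkx6-2 and the Olig1 to Olig2 ratio was the same under every alternative run, and that of Nkx2-2 was reversed without ctrl replicate 2 (−0.11) and without Zfp276cko replicate 2 (−0.07). With DESeq2, Olig1 (−0.88) and Olig2 (−0.62) passed the thresholds, and 326 genes were called lower and 419 higher. Without a filter on low counts edgeR called 8 genes higher. With a library left out, the remaining library of that genotype is assumed to vary like the other genotype. The log2 fold changes then ranged from −0.94 to −0.79 for Olig1, −0.68 to −0.54 for Olig2, −0.11 to 0.21 for Nkx2-2 and 0.32 to 0.43 for Nkx6-2. Olig1 passed without either ctrl library and Olig2 without ctrl replicate 2, while genes called lower ranged from 0 to 1286 and higher from 0 to 1792. Calls were made when a ctrl library was absent, where the spread comes from the Zfp276cko pair alone, and 0 were made when a Zfp276cko library was absent, as with all 4 libraries. The replicate block gave −0.86 for Olig1 and −0.60 for Olig2 (adjusted p = 0.237 and 0.310 in edgeR's test) and changed no call. With coding length the mean level over both genotypes was 30095 normalized counts per kilobase for Olig1, 11100 for Olig2, 6162 for Nkx2-2 and 644 for Nkx6-2. Precision is limited by 2 libraries per genotype rather than by depth for Olig1, Olig2 and Nkx2-2.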

Other observations

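Several genes outside the lineage factors showed large differences between the ctrl libraries. Dlx1 and Dlx2, homeodomain factors of ventral forebrain progenitors and interneurons that restrict Olig2 in development, had 10.7 and 35.6 normalized counts in ctrl replicate 1. In ctrl replicate 2 they had 1191 and 573, and in Zfp276cko cells 719 and 791 for Dlx1 and 254 and 288 for Dlx2. The ctrl replicates differed by a ratio of 1.09 for Olig2 and 1.10 for Olig1. The neuron marker Gad1 showed the same contrast between libraries, with 78.4 in ctrl replicate 1, 2002 in ctrl replicate 2, and 920 and 1003 in the Zfp276cko replicates.

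Among the OPC markers, Cspg5 and Neu4 had the smallest p-values. Cspg5, a proteoglycan, had 4156 and 4074 normalized counts in ctrl against 1815 and 1883 in Zfp276cko cells, and Neu4, a sialidase, had 5570 and 4465 against 1577 and 1427. Their log2 fold changes of −1.15 and −1.74 had an adjusted p of 0.0962 in edgeR's quasi-likelihood test, and both were called by DESeq2. Of the 12 OPC markers, 8 lay below and 1, the endothelin receptor Ednrb, lay above both ctrl libraries. The corresponding shares of all tested genes were 23.7% and 26.8%. All 20 listed genes of the interferon response were higher in each Zfp276cko library than in either ctrl library. This held for 26.8% of all tested genes. The median log2 fold change of the 20 was 3.27. The quasi-likelihood test of edgeR called 0 of the 20, and DESeq2 called 16 higher, against 2.66% of all tested genes. The ctrl replicates differed here, with a summed level of 627.9 and 287.6 CPM, against 4882 and 4780 in the Zfp276cko replicates.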
